A study of Homo sapiens with 6 samples.

Results

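EFTUD2 is a GTPase of the U5 snRNP, the spliceosome particle that holds the exons at the catalytic center, and it was compared here with 8 proteins that sit beside it in U5 or help to assemble U5. The 9 genes, EFTUD2, PRPF8, SNRNP200, SNRNP40, PRPF6, CD2BP2, TXNL4A, DDX23 and AAR2, were taken by symbol from a table of 23524 genes. Each was listed once, and all 9 passed the filter on low values that left 17222 genes for testing. The cells were Hep G2, a human liver tumor line that grows in culture. By the labels the control cells were given the empty vector and the EFTUD2 cells the EFTUD2 gene. The methods describe puromycin selection for stable cells, and a figure caption describes lentiviral delivery to Hep G2 cells, both without naming the sequenced libraries. The study states that the cells taken for RNA-Seq overexpressed EFTUD2 stably. RNA of 3 libraries per group, numbered 1 to 3, was enriched for poly-A and sequenced. The promoter of the vector, and whether the cells were a pool or a single clone, are not given in the sources used here. The methods state in general that data came from independent experiments, but neither they nor the labels say for these libraries that each came from a separate culture, so p-values measure only the spread between these libraries, which may be technical.

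As background, the U5 snRNP is built around PRPF8, the large scaffold protein that wraps the catalytic RNA. EFTUD2 resembles the elongation factor of the ribosome and binds PRPF8, and together they control SNRNP200, the helicase that unwinds the U4 and U6 snRNAs so that splicing can start. U5 joins the U4/U6 particle to form the tri-snRNP before it enters the spliceosome, and in liver cells, as in other cells, nearly all intron-containing transcripts pass through it.

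The study lists a qPCR primer pair for EFTUD2, which shows where in the transcript its level can be read. The pair was matched without mismatches to GENCODE release 29 (GRCh38) and lies on the minus strand at chr17:44876018-44880573, where it starts in exon 7 and ends in exon 9 of a coding transcript of EFTUD2. The gene itself spans chr17:44849943-44899662. Of 206694 transcripts searched, 5 matched, all of EFTUD2 and all with the same product of 186 bases, which was coding in 4 of them and belonged to a retained-intron transcript in the other. It is printed here in transcript direction with the primer sites in capitals. The sequence of the insert is not given in the sources used here. If the insert holds this coding stretch, the product reads the inserted and the endogenous EFTUD2 transcripts alike.

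EFTUD2 product: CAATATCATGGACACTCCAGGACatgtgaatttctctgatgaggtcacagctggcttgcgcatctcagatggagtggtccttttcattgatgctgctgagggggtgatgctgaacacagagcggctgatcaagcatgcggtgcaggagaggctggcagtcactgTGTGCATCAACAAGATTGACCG

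The same limit holds for the RNA-Seq values, which are given per gene as FPKM, that is, fragments per length of transcript, scaled to the mapped fragments of the library. FPKM is scaled to length, so levels of different genes can be set side by side, but the number of reads behind a value is unknown.

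EFTUD2 mRNA was higher in all overexpressing libraries than in any control. It measured 41.1, 54.4 and 46.3 FPKM with the empty vector against 106.6, 102.9 and 109.5 FPKM with EFTUD2, in the order of replicates 1 to 3, which is kept for all genes. The group means were 47.3 ± 6.65 and 106.3 ± 3.30 FPKM (SD, n = 3 each), a ratio of 2.25. The 3 EFTUD2 libraries lay close together, with a smaller spread than the controls. On the scale of log2(FPKM + 1), which understates the change of low genes, the fold change was 1.16 (standard error 0.12, 95% interval 0.87 to 1.46). Its adjusted p from limma over all genes tested was 0.13, above the threshold of 0.05, and the exact two-sided permutation test gave p = 0.1, the smallest that 3 against 3 libraries allow. Only 4 genes had a smaller unadjusted p, as EFTUD2 ranked at position 5 of 17222. The size was stable when single libraries were left out, between 1.07 and 1.26, while the adjusted p was 0.028 without EFTUD2 replicate 3. In this comparison limma gave 0 genes an adjusted p under 0.05 (0% of those tested), and 2118 genes an unadjusted p under 0.05 (12.3%).

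The genes around the EFTUD2 locus were looked at for the same difference. Both protein-coding genes that overlap EFTUD2 lie on the opposite strand, and whether the counting used strand is not given in the sources used here. HIGD1B was at 0.19 FPKM or less and CCDC103 (also named DNAAF19) at 0.56 FPKM or less in every library. Of the 10 nearest listed genes, 5 on each side, 7 could be tested, with log2 fold changes from -0.28 to 0.75 and a median of -0.06. Their groups did not overlap for 2 higher genes and 1 lower gene, and over all genes tested the shares were 7.92% higher and 19.4% lower. The highest value was that of C1QL1, which did not exceed 1.95 FPKM.

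**Figure D1:**
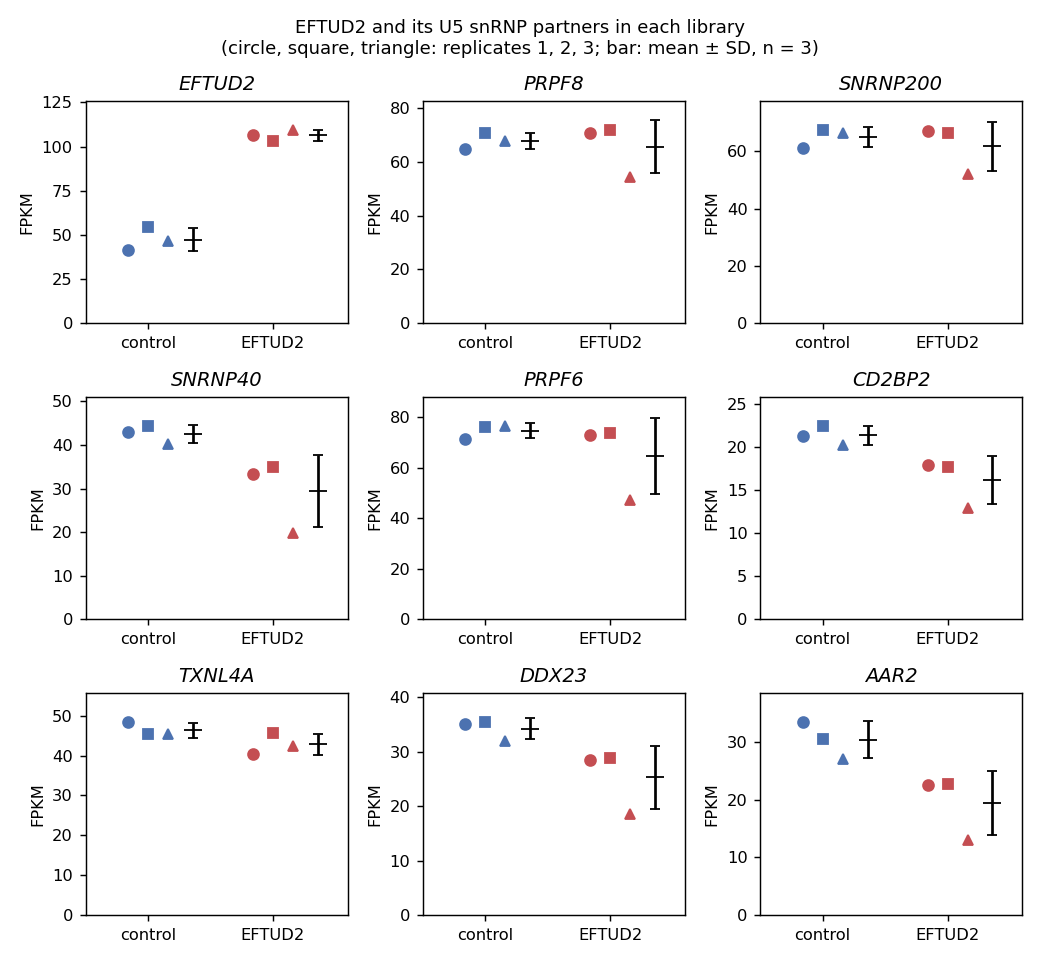
FPKM of each of the 9 genes (y axis, from 0) in control and EFTUD2 libraries (x axis), with circles, squares and triangles for replicates 1, 2 and 3 and a bar for the mean ± SD (n = 3). EFTUD2 lies at 41.1 to 54.4 FPKM in the controls and at 102.9 to 109.5 FPKM in the EFTUD2 libraries, and EFTUD2 replicate 3 is the lowest library for every partner but TXNL4A.

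The 8 partners did not follow EFTUD2. All 8 had a log2 fold change below 0, from -0.65 for AAR2 to -0.05 for PRPF8, with a median of -0.31. Over all genes tested, 62.7% were below 0 and the median was -0.07. Among the 12556 genes with a mean of 1 FPKM or more, which include the 8 partners, 68.3% were below 0 and the median was -0.12. By limma 0 of the 8 passed the adjusted threshold in either direction. An unadjusted p under 0.05 was found for 4 partners, all lower (SNRNP40, CD2BP2, DDX23 and AAR2), against 7.9% of all genes lower at this p. The count was 0 without control replicate 1 or control replicate 2 and 1 without control replicate 3, while it was 4 without EFTUD2 replicate 1, 2 or 3. Over all genes, of which 17071 to 17293 were tested, 664, 719 and 771 were lower at this p without control replicates 1, 2 and 3. Without EFTUD2 replicates 1, 2 and 3 there were 1101, 1538 and 1521, against 1361 with all libraries. The median of the partners was -0.33, -0.29 and -0.32 without control replicates 1, 2 and 3, and -0.40, -0.40 and -0.18 without EFTUD2 replicates 1, 2 and 3. Under median-of-ratios scaling, which moved the median of all genes to 0.0023, 5 of the 8 partners were below 0 with a median of -0.20. Of all genes, 49.6% were below 0 under this scaling. The 4 named partners were again lower at an unadjusted p under 0.05, against 848 of 17203 genes. Of all genes at this p, 57.0% were higher, against 35.7% as deposited. In the deposited values, the same 4 partners were those whose groups did not overlap, against 19.4% of all genes lower in this way. As RNA was taken from whole cultures, a lower level per cell and fewer cells with the transcript cannot be told apart.

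Both large partners that touch EFTUD2 directly were near the control level. PRPF8 measured 64.7, 70.6 and 67.7 FPKM with the empty vector against 70.7, 71.96 and 54.4 FPKM with EFTUD2. SNRNP200 measured 61.1, 67.5 and 66.2 FPKM with the empty vector against 67.0, 66.4 and 52.0 FPKM with EFTUD2. For both genes, EFTUD2 replicates 1 and 2 lay in or just above the range of the controls and replicate 3 below it, at 0.84 and 0.85 times the lowest control. The log2 fold change of PRPF8 was -0.05 (95% interval -0.37 to 0.26) with an adjusted p of 0.86 from limma, and that of SNRNP200 was -0.08 (95% interval -0.38 to 0.23) with an adjusted p of 0.77. These intervals leave room for moderate changes in both directions. Without EFTUD2 replicate 3 the signs turned, to 0.076 for PRPF8 and 0.039 for SNRNP200, and under median-of-ratios scaling they also turned, to 0.063 and 0.037. The ratio of PRPF8 to SNRNP200 hardly moved, as it lay between 1.02 and 1.08 in all 6 libraries.

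Among the other structural proteins of U5, SNRNP40 was lower and PRPF6 and TXNL4A overlapped with the controls. SNRNP40, a WD-repeat protein, measured 42.9, 44.4 and 40.2 FPKM with the empty vector against 33.3, 34.9 and 19.8 FPKM with EFTUD2. All 3 EFTUD2 libraries were below all controls, and replicate 3 was at 0.58 times the mean of replicates 1 and 2. Its log2 fold change was -0.56 (standard error 0.21, adjusted p = 0.40 from limma; exact permutation test, two-sided p = 0.1), and -0.31 without EFTUD2 replicate 3 (adjusted p = 0.16 from limma). PRPF6, the bridge between U5 and U4/U6, measured 71.2, 75.9 and 76.6 FPKM with the empty vector against 72.9, 73.8 and 47.3 FPKM with EFTUD2. Replicates 1 and 2 were thus within the control range, and the log2 fold change of -0.23 (95% interval -0.66 to 0.20, adjusted p = 0.55 from limma) shrank to -0.023 without replicate 3. TXNL4A, a small thioredoxin-like protein, measured 48.6, 45.3 and 45.4 FPKM with the empty vector against 40.4, 45.7 and 42.5 FPKM with EFTUD2. It was the only partner whose lowest value was not in EFTUD2 replicate 3. Its log2 fold change was -0.11 (95% interval -0.34 to 0.12, adjusted p = 0.57 from limma), and with median-of-ratios scaling it was 0.0019. HSBP1L1, a gene on the opposite strand that overlaps TXNL4A, was at 6.32 to 9.03 FPKM.

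The factors that act on U5 before or as it enters the spliceosome were lower in all 3 EFTUD2 libraries. DDX23, the helicase that helps to hand the 5′ splice site over from U1, measured 35.0, 35.5 and 32.0 FPKM with the empty vector against 28.5, 28.8 and 18.5 FPKM with EFTUD2. CD2BP2, which is bound to U5 but leaves before the tri-snRNP forms, measured 21.3, 22.4 and 20.2 FPKM with the empty vector against 17.8, 17.6 and 12.9 FPKM with EFTUD2. AAR2, a chaperone that holds PRPF8 in the cytoplasm until SNRNP200 can bind, measured 33.5, 30.5 and 27.1 FPKM with the empty vector against 22.5, 22.8 and 13.0 FPKM with EFTUD2. In each of these genes EFTUD2 replicates 1 and 2 agreed closely, replicate 3 was the lowest library, and all EFTUD2 values lay below all controls (two-sided exact permutation test, p = 0.1 each). The log2 fold changes were -0.45 for DDX23 (standard error 0.18), -0.40 for CD2BP2 (standard error 0.15) and -0.65 for AAR2 (standard error 0.22). Without EFTUD2 replicate 3 they were -0.25 for DDX23, -0.25 for CD2BP2 and -0.40 for AAR2. In limma the adjusted p with all libraries was 0.40 for each. AAR2 had the lowest fold change of the 9 genes, at percentile 1.65 of all genes tested, followed by SNRNP40 at 3.14.

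**Figure D2:**
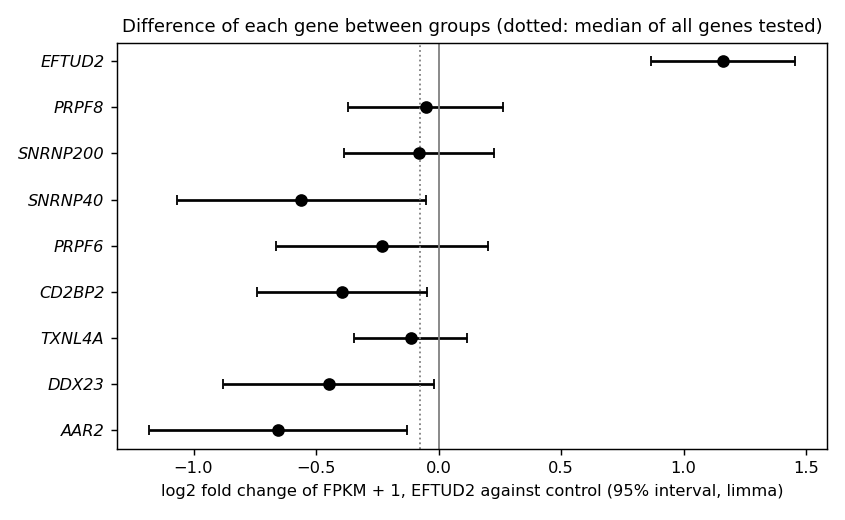
Log2 fold change of FPKM + 1 between EFTUD2 and control libraries (x axis) for each of the 9 genes (y axis), with 95% intervals from limma; the dotted line marks the median of all genes tested (-0.07). EFTUD2 lies at 1.16, the intervals of SNRNP40, CD2BP2, DDX23 and AAR2 lie below 0, and those of PRPF8, SNRNP200, PRPF6 and TXNL4A include 0.

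EFTUD2 replicate 3 stood apart for most partners. The median of the 8 partners relative to the control mean was -0.22 and -0.13 on the log2 scale in EFTUD2 replicates 1 and 2 and -0.66 in replicate 3, where the medians of all genes were -0.05, -0.04 and -0.15. For 7 of the 8 partners replicate 3 was the lowest of the 6 libraries, which was so for 45.7% of all genes tested. EFTUD2 itself was not lower there, at 1.05 times the mean of replicates 1 and 2. The SD of the log2 values had a median over the partners of 0.071 in the controls and 0.30 in the EFTUD2 libraries, against 0.12 and 0.20 over all genes. Within the controls the partners were therefore steadier than the typical gene, and within the EFTUD2 group they were less steady. The genes were not matched by level, and the partners lay at percentiles 78.2 to 94.7 of control level. Over all genes, the SD of the log2 difference was 0.23 between EFTUD2 replicates 1 and 2. It was 0.51 between EFTUD2 replicates 1 and 3 and 0.60 between EFTUD2 replicates 2 and 3. Without replicate 3, a fit looked at because this library stood apart, SNRNP40, CD2BP2, DDX23 and AAR2 were again lower in both EFTUD2 libraries than in any control (25.2% of all genes), and PRPF8 was higher (14.7% of all genes). The lowest adjusted p among the partners from limma was then 0.16, that of AAR2.

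**Figure D3:**
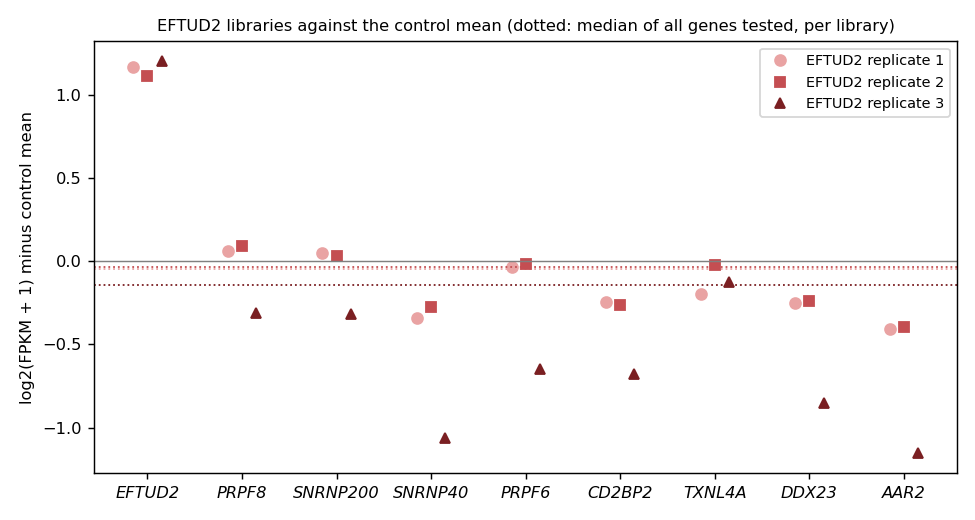
Difference of log2(FPKM + 1) in each EFTUD2 library from the control mean (y axis) for the 9 genes (x axis), with dotted lines for the median of all genes tested in the same library. EFTUD2 is at 1.11 to 1.20 in the 3 libraries, while replicate 3 (dark triangles) reaches -1.06 for SNRNP40 and -1.16 for AAR2 and lies below replicates 1 and 2 for every partner but TXNL4A.

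Markers of cell identity were summed in each library. The summed level of 10 liver markers of Hep G2 cells was 7501 to 11210 FPKM in the controls, 9999 and 9936 FPKM in EFTUD2 replicates 1 and 2, and 15253 FPKM in replicate 3, and all 10 were above 0 in every library. The sum follows its most abundant genes, such as albumin, and 3 of the 10 had a log2 fold change below 0. A further 5 genes (VIM, CD44, KRT7, KRT17 and LDHB) are marks of mesenchymal or other epithelial cells. They were picked because an earlier analysis of these data had found them low in the controls and unequally high in the EFTUD2 libraries. The differences of these 5 genes thus follow from how they were picked. Their summed level was 1.97 to 3.01 FPKM in the controls and 143.5, 317 and 16.3 FPKM in EFTUD2 replicates 1 to 3. The 3 macrophage markers were at 0 in the controls and EFTUD2 replicate 3 and summed to at most 0.13 FPKM elsewhere, and the 2 endothelial markers summed to 0.82 to 1.26 FPKM. The part of these differences in the partner values was not tested.

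Because both values of a ratio come from the same library, the level of EFTUD2 relative to a partner does not depend on the scaling between libraries. In the controls EFTUD2 was the scarcer mRNA beside PRPF8, with 0.64, 0.77 and 0.68 EFTUD2 per PRPF8, and in the EFTUD2 replicates it was the more abundant one, with 1.51, 1.43 and 2.01. The order of EFTUD2 and PRPF8 was thus turned in every library. Relative to SNRNP200 the ratio went from 0.73 ± 0.070 to 1.75 ± 0.31, and relative to PRPF6 from 0.63 ± 0.073 to 1.72 ± 0.51 (SD, n = 3 each). Relative to AAR2 it went from 1.57 ± 0.30 to 5.88 ± 2.18, the largest fold of the 8 partners at 3.74, and PRPF8 had the smallest at 2.37. For all 8 partners the lowest EFTUD2 library was at least 1.86 times the highest control. Beside the median partner EFTUD2 stood at 0.90, 1.21 and 1.08 in the controls and at 2.89, 2.55 and 3.51 in the EFTUD2 replicates.

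**Figure D4:**
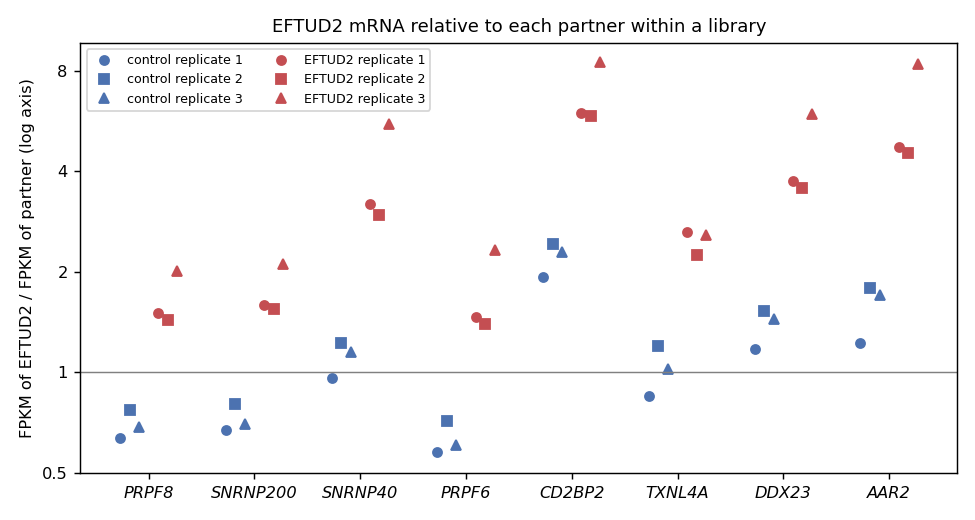
FPKM of EFTUD2 divided by that of each partner (y axis, log scale) within each library, for the 8 partners (x axis), with blue for control, red for EFTUD2 libraries and symbols for replicates 1 to 3. Every red point lies above every blue point of the same partner, and replicate 3 is the highest red point for every partner but TXNL4A.

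In the controls PRPF6 had the highest level of the 9 genes and CD2BP2 the lowest. In descending order of mean FPKM they were PRPF6 (74.6 ± 2.93), PRPF8 (67.7 ± 2.95), SNRNP200 (64.9 ± 3.41), EFTUD2 (47.3 ± 6.65), TXNL4A (46.4 ± 1.86), SNRNP40 (42.5 ± 2.13), DDX23 (34.2 ± 1.92), AAR2 (30.4 ± 3.21) and CD2BP2 (21.3 ± 1.11; SD, n = 3 each). The ranges of 3 pairs of neighbors overlapped, namely PRPF8 with SNRNP200, EFTUD2 with TXNL4A, and DDX23 with AAR2, while PRPF8 was still above SNRNP200 and DDX23 above AAR2 in each library. EFTUD2 and TXNL4A were not told apart by their spread. In the EFTUD2 libraries EFTUD2 came first, and its range was clear of that of PRPF8, the second. The remaining order was PRPF8, PRPF6, SNRNP200, TXNL4A, SNRNP40, DDX23, AAR2 and CD2BP2, with the first 3 overlapping one another, as did each neighboring pair from SNRNP40 to CD2BP2. Apart from EFTUD2, the order thus differed from the controls only in PRPF6 and PRPF8, which overlapped.

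Since the partners differed in their values, the sequences before their start sites were set side by side for those near the control level (PRPF8 and SNRNP200) and for the lowest 2 (SNRNP40 and AAR2). Printed are the 100 bases upstream of each start in the RefSeq promoter table (GRCh38.p14), in transcript direction, with matches to the ETS motif CCGGAAG and to CCAAT in capitals, on either strand.

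PRPF8, minus strand, chr17:1684868-1684967: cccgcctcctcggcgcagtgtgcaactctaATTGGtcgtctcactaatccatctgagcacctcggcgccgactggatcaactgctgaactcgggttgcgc
SNRNP200, minus strand, chr2:96305547-96305646: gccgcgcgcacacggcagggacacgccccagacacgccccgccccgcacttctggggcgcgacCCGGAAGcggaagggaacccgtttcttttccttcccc
SNRNP40, minus strand, chr1:31296789-31296888: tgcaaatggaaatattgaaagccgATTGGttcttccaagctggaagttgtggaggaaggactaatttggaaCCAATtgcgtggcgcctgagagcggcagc
AAR2, plus strand, chr20:36236378-36236477: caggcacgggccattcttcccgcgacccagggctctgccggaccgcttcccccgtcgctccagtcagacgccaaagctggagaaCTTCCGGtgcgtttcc

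The CCAAT motif stood before PRPF8 and SNRNP40, and the ETS motif before SNRNP200 and AAR2. The part of these motifs in the levels was not tested. The full windows ran from 250 before to 50 after the start, and the 9 genes had 12 of them. The ETS motif was found in 4 of the 12 windows (AAR2, CD2BP2, PRPF6 and SNRNP200) and in 10.3% of all 35116 windows of the table. CCAAT was found in 4 of the 12 windows (CD2BP2, DDX23, PRPF8 and SNRNP40) and in 34.6% of all windows. The YY1 motif AAGATGGCG was found in 1 window, of DDX23 (1.75% of all windows), and TATAAA in 1 window, of AAR2 (11.5%). The palindromic NRF1 motif was found in 0 of the 12 windows (1.24% of all windows), and the GC box GGGCGG in 10, of 7 genes (45% of all windows). These are matches of letters and not measured binding.

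A wider set of snRNP genes differed from the controls mainly in EFTUD2 replicate 3. Of 38 genes of the U4/U6 particle, the Sm and LSm rings and snRNP assembly, all of which could be tested, 31 had a log2 fold change below 0. This was so for 62.7% of all genes, and for 68.3% of those with a mean of 1 FPKM or more. The median of the 38 was -0.25, and by limma 0 passed the adjusted threshold. At an unadjusted p under 0.05, 6 were lower and 0 higher, against 7.9% and 4.4% of all genes. Under median-of-ratios scaling their median was -0.14. The groups did not overlap for 12 lower genes and 1 higher gene, against 19.4% and 7.92% of all genes, and replicate 3 of the EFTUD2 group was the lowest library for 27, against 45.7% of all genes. In EFTUD2 replicates 1 and 2 the median of these genes was -0.071, close to that of all genes, and in replicate 3 it was -0.53.

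The proteins of U4/U6 and the tri-snRNP, 10 genes, had a median of -0.26, which was -0.12 over EFTUD2 replicates 1 and 2 alone. PPIH, a peptidyl-prolyl isomerase of the U4/U6 particle, was the highest at 0.08 (adjusted p = 0.88 from limma) and RBM42, an RNA-binding protein, the lowest at -0.34 (adjusted p = 0.41). Of these 10 genes, 2 were lower at an unadjusted p under 0.05 (7.9% of all genes), and the groups of 5 did not overlap, all lower (19.4% of all genes). RBM42 measured 42.3, 41.7 and 43.2 FPKM with the empty vector against 34.3, 41.0 and 26.4 FPKM with EFTUD2, so that replicate 2 almost reached the controls.

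The Sm ring, 7 proteins that coat U5 as well as U1, U2 and U4, had a median of -0.14, whose sign turned to 0.042 over EFTUD2 replicates 1 and 2 alone, and 0 of its genes had an unadjusted p under 0.05 by limma. SNRPD2 was the highest at 0.09 (adjusted p = 0.70 from limma) and SNRPB the lowest at -0.31 (adjusted p = 0.42), from 313 ± 20.6 to 254 ± 44.0 FPKM (SD, n = 3 each). The LSm ring, 7 proteins of the U6 snRNA, had a median of -0.15, and of -0.053 over EFTUD2 replicates 1 and 2 alone. LSM4 was the highest at 0.25 (adjusted p = 0.45 from limma) and LSM3 the lowest at -0.29 (adjusted p = 0.48). LSM7 was the only LSm gene with an unadjusted p under 0.05, lower at 79.8, 86.9 and 72.2 FPKM in the EFTUD2 replicates than in the controls at 91.1, 102.9 and 96.5 FPKM. Several Sm and LSm genes have processed pseudogenes, with which their reads could have been shared.

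The 14 assembly factors had a median of -0.45, which was -0.13 over EFTUD2 replicates 1 and 2 alone and -0.96 in replicate 3. Of these, 12 were below 0 (62.7% of all genes, and 68.3% of those with a mean of 1 FPKM or more). By limma 3 of the 14 had an unadjusted p under 0.05, all lower (7.9% of all genes). ZNHIT2, which acts in the assembly of U5, was the lowest at -0.65 (standard error 0.41, adjusted p = 0.47 from limma), with 5.81, 6.70 and 6.16 FPKM in the controls and 4.78, 6.28 and 1.29 FPKM in the EFTUD2 replicates. CLNS1A, which brings Sm proteins to the methylating enzyme, was the highest at 0.23 (adjusted p = 0.45). It was the 1 gene of the 38 whose EFTUD2 libraries all lay above the controls. The controls were at 47.79, 53.38 and 51.35 FPKM and the EFTUD2 replicates at 56.12, 53.5 and 70.98 FPKM, so replicate 2 barely passed the highest control. The partners of CLNS1A in that step, PRMT5 and WDR77, had log2 fold changes of -0.64 and -0.62 (adjusted p of 0.40 and 0.43 from limma), both named after their values were seen. In the EFTUD2 replicates PRMT5 was at 79.2, 77.1 and 43.7 FPKM and WDR77 at 28.5, 30.1 and 12.7 FPKM. The lowest controls were 91.0 FPKM for PRMT5 and 30.2 FPKM for WDR77. The ZNHIT2 groups overlapped, as replicate 2 lay within the control range and replicate 3 far below it.

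**Figure D5:**
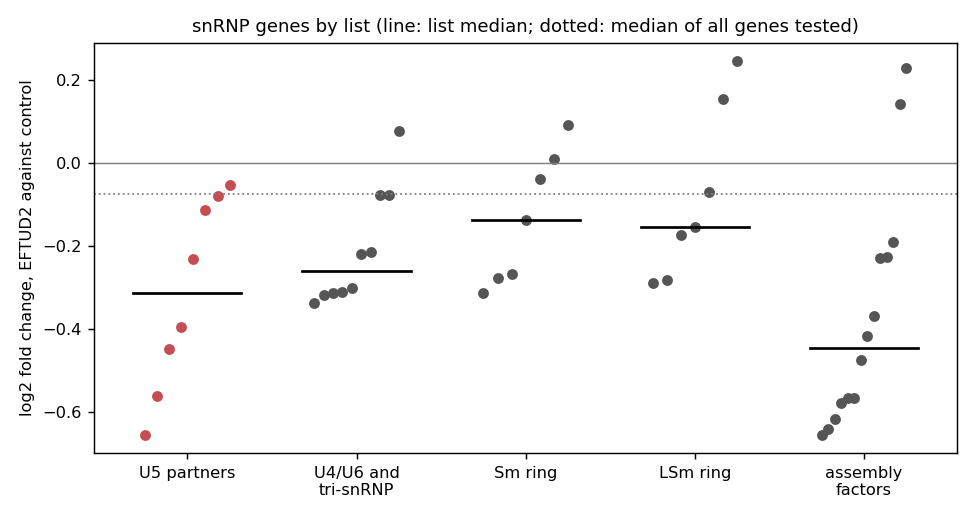
Log2 fold change between EFTUD2 and control libraries (y axis) of each gene in 5 lists of snRNP genes (x axis), 1 point per gene, with a line at the median of each list and a dotted line at the median of all genes tested (-0.07). The list medians run from -0.14 for the Sm ring to -0.45 for the assembly factors.

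Genes related to the members in sequence were also looked up, and none had an adjusted p under 0.05 by limma. Whether any reads were shared with them was not tested. EEF2, the ribosomal elongation factor that EFTUD2 resembles, measured 864, 748 and 881 FPKM with the empty vector against 927, 886 and 1296 FPKM with EFTUD2 (log2 fold change 0.30, adjusted p = 0.47 from limma). Its libraries did not overlap between groups (7.92% of all genes were higher in this way), and replicate 3 was the highest. EFL1, another relative of EFTUD2 that acts in ribosome maturation, measured 7.10, 5.58 and 5.82 FPKM with the empty vector against 4.50, 4.84 and 2.70 FPKM with EFTUD2, without overlap (log2 fold change -0.54, adjusted p = 0.40 from limma). The mitochondrial relatives GFM1 and GFM2 had log2 fold changes of -0.20 and 0.0038 (adjusted p of 0.70 and 0.99 from limma). ASCC3, a helicase related to SNRNP200, was lower at -0.45 (adjusted p = 0.40 from limma). As with EFL1, the groups of ASCC3 did not overlap, against 19.4% of all genes lower in this way. TXNL4B, the relative of TXNL4A, was at -0.06 (adjusted p = 0.81 from limma). SNW1, a splicing factor that the study's introduction names as a binding partner of EFTUD2, measured 46.0, 36.9 and 33.4 FPKM with the empty vector against 29.8, 29.5 and 25.2 FPKM with EFTUD2. Its groups did not overlap (19.4% of all genes were lower in this way), and its log2 fold change was -0.44 (standard error 0.15, adjusted p = 0.40 from limma).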

How the data were processed

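RNA-Seq values of 6 Hep G2 libraries, 3 with the empty vector and 3 with EFTUD2, were grouped by their titles. The authors deposited 1 table of FPKM per gene and library, rounded to 2 decimals. The submitters' processing notes name HISAT2, Bowtie2, RSEM and DESeq2 and the build hg38, and the annotation is not given in the sources used here. No columns of other samples were present. Ratios of low values were compared between libraries, and the most frequent one was shared by at most 3.47% of 2711 low genes, so the read depth is unknown. Other samples were not analysed here.

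From the deposited FPKM, log2(FPKM + 1) was computed, genes were kept if their mean reached 0.1 FPKM, and groups were compared with limma 3.58.1 (trend) in R 4.3.3, with Benjamini-Hochberg adjustment over all 17222 genes. An exact permutation test was added for single genes. The members and lists were chosen with earlier results of these data known. All 9 members are named, with the highest and lowest gene of each list, the relatives and SNW1. The tests were checked on simulated data. Alternatives were a pseudocount of 0.1 or 0.01, the filter left out or raised to 1 FPKM, 3 scalings (median of ratios, quantile, common sum), robust empirical Bayes, 2 kinds of library weights, the replicate number as a block, and each library left out. Annotation and figures used Python 3.11.15 with pandas 2.3.3 and matplotlib 3.10.9.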

Additional observations from a re-analysis of the deposited data

How the results depend on the processing

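EFTUD2 kept its direction in all 17 alternatives, with a log2 fold change between 1.07 and 1.28 (1.07 to 1.26 over the fits without 1 library). Its adjusted p from limma ranged from 0.0018 to 0.53, and it was under 0.05 with array weights (1.14; their estimation did not converge), with gene-by-gene weights (1.145) and without EFTUD2 replicate 3. In the same settings 1246, 1355 and 167 of all genes passed the threshold, and 0 to 167 passed without 1 library. None of the 8 partners passed in any setting run, their lowest adjusted p being 0.067. Of the 38 snRNP genes, 1 passed with weights gene by gene (LSM7, -0.26, adjusted p = 0.0499 from limma). In this setting 7.87% of all genes passed, and 3.66% passed as lower.

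SNRNP40, PRPF6, CD2BP2, DDX23 and AAR2 kept their direction in every setting run. The sign of PRPF8 turned with median-of-ratios scaling (0.063), array weights (0.045), weights gene by gene (0.053) and without EFTUD2 replicate 3 (0.076, the highest of -0.12 to 0.076 over the fits without 1 library). That of SNRNP200 turned with median of ratios (0.037), weights gene by gene (0.011) and without EFTUD2 replicate 3 (0.039, the highest of -0.14 to 0.039), and that of TXNL4A with median of ratios (0.0019). The cause was not tested. The 4 partners lower at an unadjusted p under 0.05 became 0 without control replicate 1 or 2 and 1 without control replicate 3. There were 4 without any 1 EFTUD2 library. Over all genes the number lower at this p was likewise smaller without a control replicate (664 to 771) than without an EFTUD2 replicate (1101 to 1538). The cause was not tested. With the median of ratios 57.0% of all genes at this p were higher, against 35.7% as deposited. Same-numbered libraries did not consistently deviate together (correlations over genes of -0.30, 0.35 and -0.09 for replicates 1, 2 and 3). EFTUD2 replicate 3 had correlations of 0.38 with control replicate 1 and -0.40 with control replicate 2. With the replicate block EFTUD2 was at 1.16 (adjusted p = 0.36 from limma), with 0 genes past the threshold.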

Other observations

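The genes whose pattern over the 6 libraries was most like that of EFTUD2 were found by the root mean square difference of log2(FPKM + 1) values, each centered on its control mean, among 12556 genes whose mean was 1 FPKM or more. The nearest 5 were GPX3 (difference 0.21), C4BPA (0.22), NME1-NME2 (0.23), LRG1 (0.23) and AVPI1 (0.23). GPX3, a secreted glutathione peroxidase, measured 38.8, 51.5 and 59.9 FPKM with the empty vector against 94.8, 130.1 and 124.0 FPKM with EFTUD2. C4BPA, a chain of a complement inhibitor made in the liver, measured 7.98, 7.02 and 9.39 FPKM with the empty vector against 20.3, 21.4 and 22.5 FPKM with EFTUD2. Replicate 3 was among the libraries compared, so its level in these genes follows from how they were picked. NME1-NME2 is a read-through of neighboring genes, whose reads it can share. These genes were picked for their likeness, so their differences were not tested.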
